A study of Mus musculus with 14 samples.

Results

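The Hox genes are the homeobox transcription factor genes that lie side by side in the 4 clusters HoxA, HoxB, HoxC and HoxD. 38 of these genes were examined, comprising 10 of HoxA, 10 of HoxB, 9 of HoxC and 9 of HoxD, out of 21755 protein-coding genes on chromosomes 1 to 19 and X. They were chosen by name and cluster. The rule used no measured value, but it was set with earlier results of these data known. A gene counted as marked by acetylated histone H3 (H3K27ac), or as having a site, where the middle of a site lay within 1 kb of any of its annotated transcription start sites (TSSs). All sites in the clusters and in the 100 kb on either side of each were included, which gave 73 of the 122228 sites in the list.

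The data came from immortalised mouse embryo fibroblasts (iMEF) carrying human ASH2L with an N-terminal FKBP12F36V tag, introduced with a lentiviral construct. In these cells the endogenous Ash2l alleles, which carried loxP sites, had been deleted with an inducible Cre, and the study names NG3, 1 of its clones, for these experiments. According to the study's methods all groups shared this state, so that control cells without dTAG treatment also lacked the endogenous protein. ASH2L is a core subunit of the COMPASS/KMT2 methyltransferases. The dTAG compound binds the tag and directs the fusion protein to degradation. H3K27ac chromatin immunoprecipitation followed by sequencing was carried out on 2 control libraries and on 2 libraries each after 30 min, 2 h, 4 h, 8 h and 16 h of dTAG, with 1 input library of control cells and 1 after 16 h.

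Peaks of the 12 H3K27ac libraries had been joined into a single list of positions, so a site may stem from any of these samples. The list held no value for an individual library. Accordingly, the depth reached in each library was unknown, there was no replicate error, and differences over time were not analysed. No test was carried out, and all values below are descriptions of 1 list. On the chromosomes above, sites covered 3.07% of sequenced bases, at 4.77 sites per 100 kb and with a median width of 401 bp. The fibroblast label was compared with marker genes. All 11 fibroblast markers, among them Col1a1, Vim and Pdgfra, had a site overlapping the 1 kb window. By its middle, 9 of them had a site, compared to 54.7% of all protein-coding genes. No such share was computed for the overlap rule. Of the markers of other cell types, only Krt8 of 5 epithelial and Cdh5 of 3 endothelial genes had a site, and 0 of 3 blood and 0 of 3 pluripotency genes had one.

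The list was also compared with genes that cells generally use. Of 80 genes for ribosomal proteins, 74 had a site by its middle, compared to 54.7% of all protein-coding genes, and 77 had a site overlapping the window. However, 22 uninterrupted stretches without a site held 5 or more protein-coding genes with a CpG island (CGI) at the outermost TSS, and 2 of these overlapped a Hox cluster. The list as analysed here may not hold every site of these libraries, and whether this touches HoxB and HoxC was not tested. A stretch without a listed site can therefore not by itself be read as chromatin without H3K27ac.

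Hox proteins give cells their position along the body axis. Within a cluster the genes are transcribed in the same direction and are numbered by paralogue group. Genes of low number are generally switched on early and towards the head, and genes of high number later and towards the tail or the tips of the limbs. Fibroblasts are known to keep using Hox genes of the body region they came from. H3K27ac marks active promoters and enhancers, while silent Hox genes are typically covered by Polycomb-dependent methylation of the same lysine, so that both marks cannot sit on it at once.

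Of the 38 Hox genes, 18 (47.4%) were marked by this rule, compared to 54.7% of all protein-coding genes. Most Hox promoters are CpG-rich, and 31 of the 38 genes had a CGI within 1 kb of a TSS. Among all protein-coding genes with such a CGI, 80.3% had a site. A TSS lay inside a site in 17 Hox genes (44.7%), compared to 50.2% of protein-coding genes. The exception was Hoxa5, whose TSS was 67 bp from the nearest site. The 18 genes were all from HoxA and HoxD. In HoxA 10 of 10 genes and in HoxD 8 of 9 genes had a site, whereas 0 of 10 genes in HoxB and 0 of 9 genes in HoxC had one. The single gene of HoxD without a site was Hoxd1. Among marked genes, the closest middle was farthest from a TSS in Hoxa11, at 858 bp. Among the others it was nearest in Hoxb1, at 41897 bp. Genes without a site were thus far from the limit of 1 kb, while several marked genes were just inside it.

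**Figure D1:**
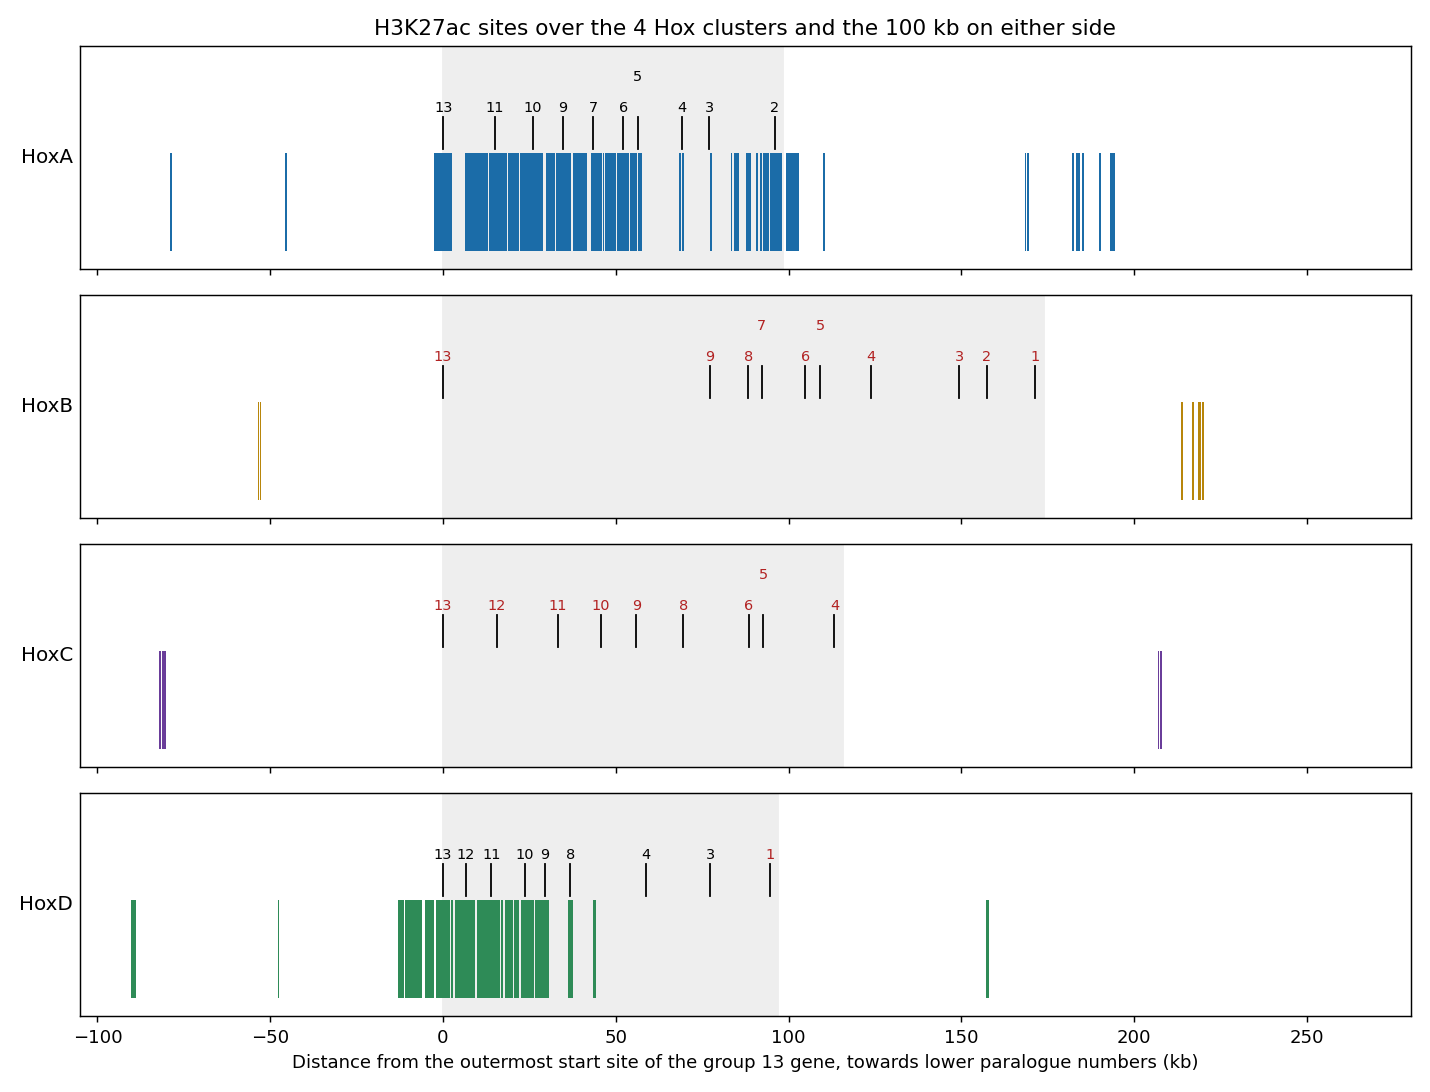
Positions of H3K27ac sites (coloured blocks) over each cluster (grey area) and the 100 kb on either side, in kb from the outermost TSS of the group 13 gene towards lower paralogue numbers; ticks are innermost protein-coding TSSs with the paralogue number, in red for genes without a site within 1 kb. Blocks narrower than 0.5 kb are drawn at 0.5 kb. Sites filled most of HoxA and the high-number end of HoxD, and the grey areas of HoxB and HoxC held 0 sites.

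HoxA (chr6:52162417-52260880, minus strand, 98.5 kb) was the most densely covered cluster. It held 28 sites, or 28.4 per 100 kb, which covered 61.1% of its bases. The genome was also divided into 26330 tiles of 100 kb, of which 6 had a covered share at least as high. The sites of HoxA measured 278 to 6857 bp, with a median of 1610 bp. By comparison, the median was 678 bp for all sites within 1 kb of a TSS. 13 of the 28 sites were wider than 2 kb and 4 were wider than 4 kb, compared to 4.33% and 0.711% of all sites. All 22 CGIs of HoxA overlapped a site, compared to 63.7% of the 16218 CGIs on the chromosomes.

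The widest sites in HoxA lay at genes of high number. Hoxa10, which patterns the lumbar spine and the uterus, had the widest site at any of the 38 genes, with 6713 bp (chr6:52231839-52238551). This site extended from 3612 bp upstream to 3100 bp downstream of the innermost Hoxa10 TSS and ranked 192 by width in the whole list. Hoxa11, a gene of forearm and kidney development, had a site of 5275 bp, and Hoxa9, known from haematopoiesis and leukaemia, had sites of 4303 and 2744 bp. An even wider site of 6857 bp (chr6:52247732-52254588), with rank 176, lay between Hoxa11 and Hoxa13 and had no Hox TSS within 1 kb of its middle. At Hoxa13, which is needed for digits and the genital tubercle, the site measured 3298 bp and ran from 817 bp upstream to 2480 bp downstream of the innermost TSS.

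Towards lower numbers the sites of HoxA became interrupted. Hoxa7 had the most sites of any of the 38 genes, with 3 sites of 3171, 548 and 3343 bp. The site of Hoxa6 measured 2378 bp. At Hoxa5, which is known for its role in lung development, a site of 1021 bp began 231 bp downstream of the TSS and ended 1251 bp downstream. Hoxa4 had 2 narrower sites of 605 and 721 bp. The longest stretch of HoxA without a site, 10656 bp (chr6:52192680-52203335), lay between Hoxa4 and Hoxa5 and held no TSS of a listed gene. Hoxa3, a gene of thymus and parathyroid development, had a site of 3107 bp (chr6:52210942-52214048) at upstream TSSs, beyond the TSS of Hoxa6. Near the innermost Hoxa3 TSS (position 52183855) it had only a site of 278 bp, at a distance of 379 bp. At the edge of the examined genes, Hoxa2, which specifies the second pharyngeal arch, had its TSS inside a site of 3523 bp (chr6:52162862-52166384).

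When sites less than 1 kb apart were joined, HoxA formed 8 regions. The longest measured 35.4 kb, was made of 9 sites and held TSSs of Hoxa7, Hoxa9, Hoxa10 and Hoxa11. A region of 14.7 kb with 7 sites held TSSs of Hoxa3, Hoxa5, Hoxa6 and Hoxa7. Each of these regions thus spanned several genes. Across the 10 genes the share of the gene body inside sites ranged from 27.3% in Hoxa4 to 95.1% in Hoxa11. Hoxa3 had 33.1%, over a gene body of 44275 bp that spans its neighbours Hoxa4, Hoxa5 and Hoxa6.

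In HoxD (chr2:74668310-74765142, plus strand, 96.8 kb) sites reached from Hoxd13 to the outermost TSSs of Hoxd3 and Hoxd4. The cluster held 13 sites, or 13.4 per 100 kb, which covered 30.4% of its bases. 236 tiles of the genome had a covered share at least as high. Widths ranged from 201 to 6523 bp with a median of 1540 bp, and 6 sites were wider than 2 kb. In the 31.9 kb from Hoxd13 to Hoxd9, 85.2% of bases were inside sites, compared to 3.44% of the other 64.9 kb. The corresponding shares in HoxA were 83.6% of the 37.8 kb of groups 9 to 13 and 47.2% of the other 60.7 kb. 10 of the 17 CGIs of HoxD overlapped a site, which is near the 63.7% of all CGIs on the chromosomes.

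Hoxd11, which acts with Hoxa11 in the forearm, had the widest site in HoxD, with 6523 bp (chr2:74678361-74684883). It began 3962 bp upstream and ended 2560 bp downstream of the innermost TSS and ranked 212 by width. The sites of Hoxd12, Hoxd13, Hoxd9 and Hoxd10 measured 5891, 4177, 4104 and 3171 bp. The site of Hoxd13, a gene required for digit formation, was nearly symmetric around its TSS, from 2090 bp upstream to 2086 bp downstream. When sites less than 1 kb apart were joined, 15 sites made a region of 43.9 kb that held the TSSs of Hoxd9 to Hoxd13 and reached beyond the cluster to Evx2. The next site was that of Hoxd8, with 1540 bp (chr2:74704528-74706067), which stood apart by 5405 bp. Each of the 8 genes had 1 site by the middle rule.

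The boundary in HoxD lay at a site of 694 bp (chr2:74711816-74712509) that was counted for both Hoxd3 and Hoxd4. The outermost TSSs of these genes are annotated 2 bp apart, at positions 74711927 and 74711929, inside this site. Their innermost protein-coding TSSs were 33165 bp (Hoxd3) and 14565 bp (Hoxd4) away from the nearest site. With 1 innermost protein-coding TSS per gene, an alternative chosen after seeing the data, HoxD therefore had 6 genes with a site in place of 8. In the gene bodies, 1.60% of Hoxd3 and 3.37% of Hoxd4 were inside sites, compared to 56.2 to 99.2% from Hoxd9 to Hoxd13. Beyond this boundary 52633 bp of the cluster (chr2:74712510-74765142) had 0 sites. Hoxd1, at the low-number end, was 50471 bp from the nearest site.

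HoxB and HoxC had 0 sites between their first and last listed base in the list as analysed here. HoxB (chr11:96194316-96368256, plus strand) measured 174 kb and HoxC (chr15:102921103-103036852, plus strand) 116 kb. The distance between the nearest sites on both sides was 266359 bp at HoxB and 287069 bp at HoxC. Of 122151 intervals between neighbouring sites, 1352 (1.11%) were at least as long as that of HoxB and 1231 (1.01%) as that of HoxC. Tiles of 100 kb without a covered base were common, at 41.0% of all tiles. However, of the 500 tiles with 5 or more CGIs only 36 (7.20%) had no covered base. HoxB held 18 CGIs and HoxC 13, and 0 of them overlapped a site.

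The 10 genes of HoxB comprised Hoxb1 and Hoxb2, which act in hindbrain segments, Hoxb3, Hoxb4, known for its effect on blood stem cells, Hoxb5, Hoxb6, Hoxb7, Hoxb8, Hoxb9 and the distant Hoxb13, a gene of the prostate and tail end. The distance of their TSSs to the nearest site ranged from 41663 bp at Hoxb1 to 129896 bp at Hoxb9. Hoxb13 at the opposite edge was 52755 bp away. In HoxC the distance ranged from 80258 bp at Hoxc13, a gene of hair and nails, to 136026 bp at Hoxc8. Hoxc4 at the low-number edge was 93520 bp away. The remaining Hoxc5, Hoxc6, Hoxc9, Hoxc10, Hoxc11 and Hoxc12 lay between these values. Distances were thus lowest at the edges of HoxB and HoxC, which follows from the absence of sites between them.

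**Figure D2:**
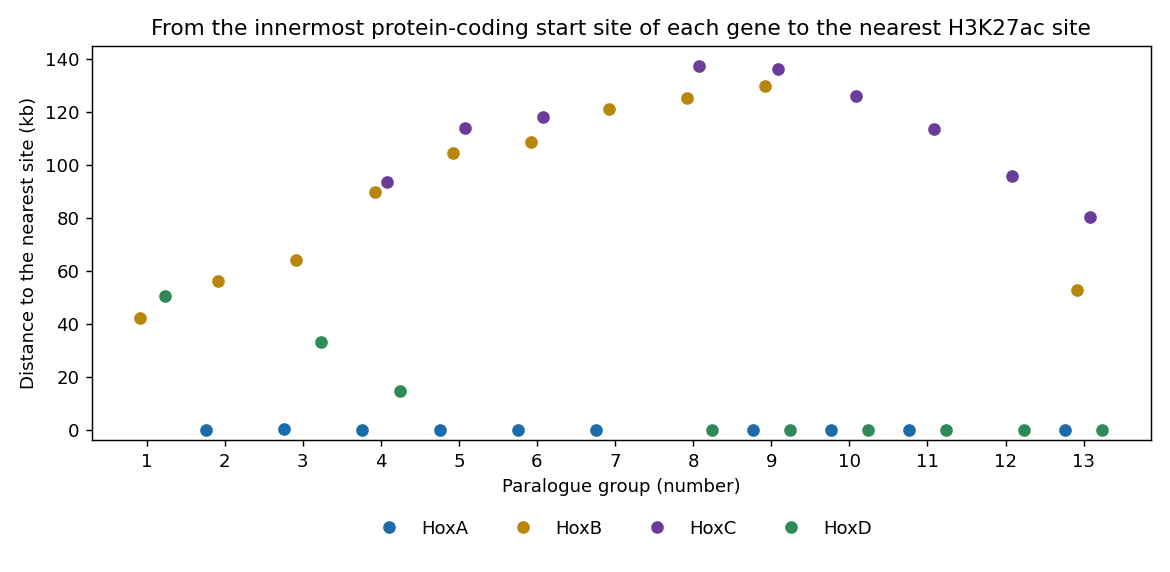
Distance in kb from the innermost protein-coding TSS of each gene to the nearest H3K27ac site, by paralogue group and cluster, with 1 point per gene. HoxA genes lay within 379 bp of a site, HoxD genes of groups 8 to 13 lay inside one, Hoxd4, Hoxd3 and Hoxd1 were 14565, 33165 and 50471 bp away, and HoxB and HoxC genes were 42169 bp or more away.

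By paralogue number, 3 of 7 genes of groups 1 to 3 (42.9%), 6 of 15 of groups 4 to 8 (40.0%) and 9 of 16 of groups 9 to 13 (56.2%) had a site, compared to 54.7% of protein-coding genes. In each of the groups 2 to 13 at least 1 gene with a site and at least 1 gene without a site were found. In group 13, for example, Hoxa13 and Hoxd13 had sites of 3298 and 4177 bp, and Hoxb13 and Hoxc13 had none. In group 9, Hoxa9 and Hoxd9 had a site and Hoxb9 and Hoxc9 had none. In group 1 neither Hoxb1 nor Hoxd1 had a site. Since genes of 1 cluster are neighbours and share sites, as with Hoxd3 and Hoxd4, the 38 genes are not independent observations. The 18 genes shared 23 distinct sites.

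Widths were also compared by position within the marked clusters. The widest site at a gene exceeded 3 kb in all 9 genes of groups 9 to 13 in HoxA and HoxD, where it ranged from 3171 to 6713 bp. In the 9 genes of lower number with a site, it ranged from 694 to 3523 bp. Both ranges overlapped, because of Hoxa2 and Hoxa7 with 3523 and 3343 bp.

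**Figure D3:**
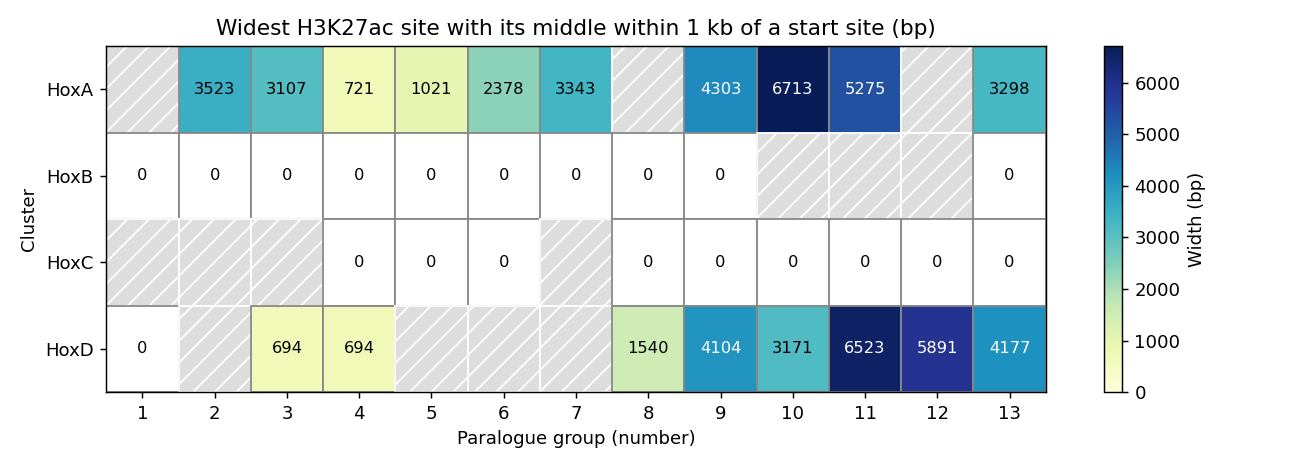
Width in bp of the widest H3K27ac site with its middle within 1 kb of a TSS, for each gene by paralogue group (columns) and cluster (rows); 0 means no such site, and hatched fields are combinations not examined. The widest sites were at Hoxa10 (6713 bp) and Hoxd11 (6523 bp), and the rows of HoxB and HoxC held only 0.

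Next, the sequence around the TSSs was examined. The ratio of observed to expected CpG in the 500 bp on either side of the outermost TSS had a median of 0.704 (range 0.571 to 0.996) in the 18 genes with a site and 0.623 (0.181 to 0.891) in the 20 genes without. Both ranges overlapped widely. The lowest values were those of Hoxb2 (0.181), Hoxc4 (0.286) and Hoxb3 (0.328). By cluster the medians were 0.664 in HoxA, 0.472 in HoxB, 0.651 in HoxC and 0.721 in HoxD. Among all protein-coding genes the median was 0.729 with a site and 0.229 without, so that the Hox genes without a site were CpG-rich for genes without a site. A CGI was present at 16 of the 18 genes with a site and at 15 of the 20 genes without. Among all protein-coding genes, it was present at 10213 of 11908 with a site and at 2503 of 9847 without. Repeats covered 13.4% of HoxA, 24.6% of HoxB, 15.9% of HoxC and 14.4% of HoxD, compared to 34.3% of the sequenced bases of the chromosomes.

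**Figure D4:**
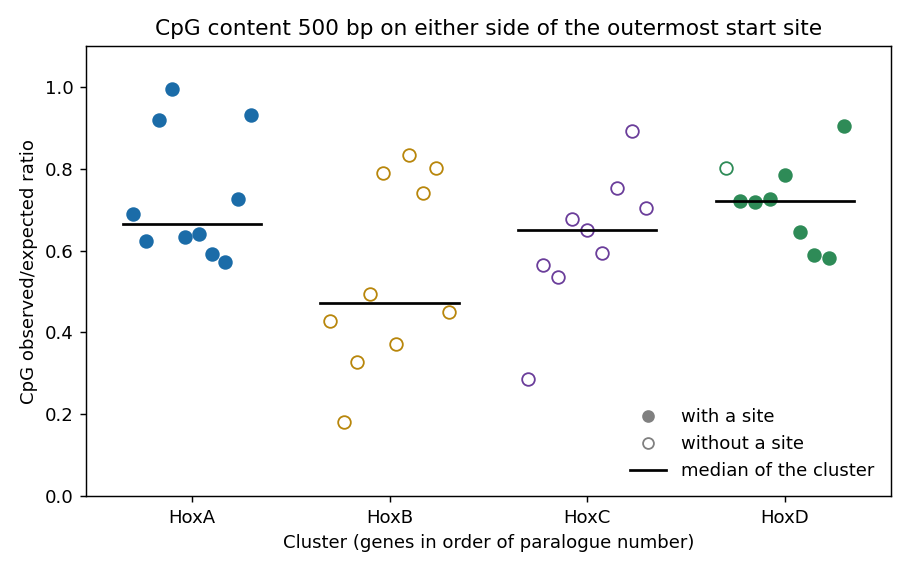
Observed to expected CpG ratio in the 500 bp on either side of the outermost TSS, with 1 point per gene in order of paralogue number, filled for genes with a site, and a line at the median of each cluster. Filled and open points overlap between 0.571 and 0.891, and the values under 0.5 belong to HoxB and to Hoxc4.

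Promoter sequences were taken from a table of RefSeq promoters (GRCm38.p6), in which 22 of the 38 genes were matched. The genes not matched were Hoxa4, Hoxb2, Hoxb3, Hoxb5, Hoxb6, Hoxb7, Hoxb9, Hoxb13, Hoxc5, Hoxc6, Hoxc8, Hoxc9, Hoxc10, Hoxc11, Hoxc12 and Hoxc13. The 250 bases upstream of the start are printed 5′ to 3′ with each CpG in capitals for 4 genes. These are Hoxa10 as the gene with the widest site (chr6:52234940-52235189, minus strand), Hoxd8 as a gene with an isolated site (chr2:74704365-74704614, plus strand), its paralogue Hoxb8 as the HoxB gene with an entry that lay farthest from a site (chr11:96281655-96281904, plus strand), and Hoxd1 as the HoxD gene without a site (chr2:74762730-74762979, plus strand).
Hoxa10: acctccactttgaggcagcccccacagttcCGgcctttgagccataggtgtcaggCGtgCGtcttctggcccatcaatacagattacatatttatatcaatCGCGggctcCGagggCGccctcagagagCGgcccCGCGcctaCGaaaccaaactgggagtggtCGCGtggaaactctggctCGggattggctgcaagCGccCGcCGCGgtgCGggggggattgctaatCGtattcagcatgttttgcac
Hoxd8: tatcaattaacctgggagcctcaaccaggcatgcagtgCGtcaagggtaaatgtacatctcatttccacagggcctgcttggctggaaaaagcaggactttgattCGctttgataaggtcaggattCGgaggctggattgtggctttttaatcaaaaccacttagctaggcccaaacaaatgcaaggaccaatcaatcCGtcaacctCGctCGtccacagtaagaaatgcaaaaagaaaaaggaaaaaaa
Hoxb8: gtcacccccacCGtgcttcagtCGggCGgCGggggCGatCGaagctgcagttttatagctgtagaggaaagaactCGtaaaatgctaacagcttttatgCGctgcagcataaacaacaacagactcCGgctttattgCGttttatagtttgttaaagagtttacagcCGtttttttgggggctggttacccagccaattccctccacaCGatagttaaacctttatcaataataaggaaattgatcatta
Hoxd1: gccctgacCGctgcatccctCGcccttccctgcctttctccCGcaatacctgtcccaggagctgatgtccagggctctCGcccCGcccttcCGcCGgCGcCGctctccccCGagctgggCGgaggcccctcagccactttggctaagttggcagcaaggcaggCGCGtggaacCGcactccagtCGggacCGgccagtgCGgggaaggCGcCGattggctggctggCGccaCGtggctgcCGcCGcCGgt

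All 250 bases of Hoxa10 and 87 of those of Hoxd8 were inside a site. The number of CpGs was 20 in Hoxa10, 6 in Hoxd8, 12 in Hoxb8 and 24 in Hoxd1, compared to a median of 6 over the 32851 promoters of the table. CpG number therefore did not separate the promoters with a site from those without among these 4. The TATA box letters TATAAA, searched on both strands, occurred 1 time in Hoxa10 and 2 times in Hoxb8 but not in Hoxd8 or Hoxd1, and were found in 12.4% of all promoters. Hoxa10 had another entry (chr6:52240855-52241104), not printed, with 7 CpGs and without TATAAA. All its 250 bases were also inside sites, and the printed entry is the one in the widest site. The AP-1 letters TGANTCA occurred in none of the 4 and in 6.75% of all promoters. Exons of the antisense gene Haglr overlapped the Hoxd1 stretch.

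Of 10 long non-coding genes of the clusters 6 had a site, compared to 27.1% of all long non-coding genes. Of 6 microRNA genes 1 had a site, compared to 15.7% of all microRNA genes. In HoxA the genes with a site were Hotairm1 (2020 bp), Hoxaas2 (1734 bp), Hoxaas3 (1487 bp), Mir196b (2744 bp), Hoxa11os (5275 bp) and Hottip (1786 bp), with the widest site of each in parentheses. The site of Hoxa11os was also counted for Hoxa11 and that of Mir196b for Hoxa9, so these are not separate from the Hox genes. Hottip is a long non-coding RNA known to bind the COMPASS component Wdr5 and to promote expression of the neighbouring HoxA genes. In HoxD, Hoxd3os1 shared the site of 694 bp with Hoxd3 and Hoxd4, while Haglr and Mir10b were 37997 and 13561 bp from a site. In HoxC, the long non-coding RNA Hotair was 106885 bp away. Hoxb3os, Hoxb5os, Mir10a, Mir196a-1, Mir196a-2 and Mir615 also had no site. For a microRNA gene, the annotated start is that of the hairpin and not of its primary transcript.

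The microRNA genes are shown because copies of the same family lay in clusters with and without sites. Mir196b of HoxA lay inside a site with all 22 bases of its mature form. Mir196a-1 of HoxB and Mir196a-2 of HoxC, which give the same mature sequence, lay 123603 and 132505 bp from a site. Mature sequences from RefSeq are printed 5′ to 3′ with the seed (bases 2 to 8) in capitals.
miR-196b-5p: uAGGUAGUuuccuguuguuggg
miR-196a-5p: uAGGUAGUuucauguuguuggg
miR-10a-5p: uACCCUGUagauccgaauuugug
miR-10b-5p: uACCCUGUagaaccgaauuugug

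Both miR-196 forms have the seed AGGUAGU and differ by A12C, with positions counted from the 5′ end and the base of miR-196a first. Both miR-10 forms have the seed ACCCUGU and differ by U12A, with the base of miR-10a first. The miR-10 genes, Mir10a of HoxB and Mir10b of HoxD, were both without a site.

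Sites outside the clusters were counted as well. In the 100 kb on the low-number side of HoxA there were 11 sites, the nearest 887 bp away, and on the high-number side 3 sites, the nearest 819 bp away. At HoxD 6 sites were on the high-number side, with the nearest at 2699 bp, and 1 site was on the low-number side at 60411 bp. The sites next to Hoxd13 included one of 4977 bp at Evx2, a homeobox gene that is regulated together with Hoxd13 in the limb. Evx1, which has the corresponding place beyond Hoxa13, had no site within 1 kb and was 6991 bp from the nearest. HoxB had 4 sites on the low-number and 2 on the high-number side, and HoxC had 2 and 3, with none within 10 kb of the cluster limits. In sum the flanks held 14 sites at HoxA, 6 at HoxB, 5 at HoxC and 7 at HoxD, and with flanks of 200 kb HoxD had the fewest, with 11 compared to 35, 21 and 32. The sites nearest to HoxB and HoxC measured 343 to 708 bp.

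Of 9 neighbouring genes of other families, 7 had a site, namely Skap2, Hibadh, Calcoco1, Smug1, Cbx5, Lnpk and Mtx2, whereas Skap1 and Ttll6 next to HoxB did not. The share of all protein-coding genes was 54.7%. Calcoco1, Smug1 and Cbx5 had sites of up to 1401 bp on either side of HoxC.

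Genes that work with Hox genes or are built like them were compared last. Pbx, Meis and Pknox proteins bind DNA together with Hox proteins, and 9 of 9 of their genes had a site, with the widest at Meis1 (2621 bp), Pbx2 (2569 bp) and Meis2 (2487 bp). Retinoic acid receptors are known activators of Hox genes of low number. Of their 6 genes, Rarb, Rarg, Rxra and Rxrb had a site. At Rara, 6 TSSs lay inside sites, but no middle of a site was within 1 kb of a TSS. Of the Rara gene body, 82.6% was in sites. Rxrg had no site. The ParaHox genes, the evolutionary sisters of the Hox clusters, had a site in 0 of 6 cases. Of the Dlx genes 4 of 6 (Dlx1, Dlx2, Dlx5 and Dlx6) and of the Irx genes 2 of 6 (Irx3 and Irx5) had a site, compared to 54.7% of all protein-coding genes.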

How the data were processed

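H3K27ac ChIP-seq was carried out in 12 libraries of iMEF cells, with 2 input libraries. The authors aligned reads to mm10 with BWA, combined replicates (Picard) and called narrow peaks (MACS). The version and threshold of MACS are not given in the sources used here. Whether peaks were called on the combined replicates is not stated either. The authors deposited the joined list as positions in bp, with the chromosome, start and end of each site. The study states a minimum number of raw reads planned per ChIP sample, but the depth reached in each library is not in the list. A joined site can be wider than in any single sample.

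Starts were read as counted from 0 and are printed counted from 1. TSSs were those of GENCODE release M21 (mm10). CGIs were runs of CpGs (score 17, other bases -1) of at least 200 bp, 50% GC and a ratio of 0.6 in the repeat-masked GRCm38.p6 sequence. Cluster limits are the first and last base of the listed genes. A flanking site had its middle within 100 kb and did not overlap the cluster. The members and lists were chosen with earlier results of these data known. Each listed gene was named, with positions for the widest sites, the genes at the edges of marked stretches and the genes with most sites. Promoters were printed for the widest site and the farthest gene with an entry. Hoxd8 was added after its values were seen, and Hoxc4 was left out because its stretch overlapped an exon. Scripts used numpy 2.4.6, scipy 1.17.1 and pandas 2.3.3 under Python 3.11.15 and were tested on simulated data. Alternatives were windows, TSS sets, site sets, limits and paralogue classes.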

Additional observations from a re-analysis of the deposited data

How the results depend on the processing

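Counts and lengths were held to a change of 1.5-fold, shares and median widths to their 95% interval, and the CpG difference to the SD over genes. For covered shares the interval took each base as an observation, so it does not measure the spread between sites and served only as a limit. Of 110 recomputed values, 90 stayed within these limits and 20 did not. HoxB and HoxC had 0 genes with a site under each window, TSS set and site set tried. This was fixed in advance, because no middle of a site lay nearer to their TSSs than 41897 bp and no window exceeded 3 kb. These zeros are among the 90 values. A window of 500 bp lowered the genes with a site from 18 to 10, with 5 in HoxA, 5 in HoxD and 4 in groups 9 to 13. This follows in part from the construction, since the middle of a wide site can lie over 500 bp from a TSS inside it. Hoxa5, also lost, had no TSS inside a site, and its closest middle was 741 bp away. The background was 80.3% among genes with a CGI. With groups 1 to 4 as the lowest class, 5 of 11 genes had a site. Merging sites less than 1 kb apart gave 66.7% covered in HoxA and 34.1% in HoxD, a median width of 3734 bp in HoxA, and 8, 2 and 3 flanking regions at HoxA, HoxC and HoxD. Limits widened by 10 kb gave 56.0% and 32.6%. Flanks of 50 kb held 5 sites at HoxA and 0 at HoxC, and flanks of 200 kb held 35, 21, 32 and 11 sites at HoxA, HoxB, HoxC and HoxD. The innermost TSS, chosen after seeing the data, lost Hoxd3 and Hoxd4. TSSs of protein-coding transcripts only lost Hoxd4, which left 17 genes with a site, 7 of them in HoxD. The outermost TSS per gene lost Hoxa9 and Hoxd11, which left 16 genes, 9 in HoxA and 7 in HoxD. Both of these outermost TSSs still lay inside a site. No paired analysis was possible because values for individual samples were not given in the list. Depth, replicate spread and time could not be examined.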

Other observations

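The AP-1 letters TGANTCA were also counted over whole sites on both strands. They occurred 1.31 times per 10 kb of the sites of HoxA and 3.17 times per 10 kb of those of HoxD, compared to 4.30 times over all sites. Outside sites, the rates were 2.09 per 10 kb in HoxA and 1.48 in HoxD, and 1.90 in HoxB and 1.64 in HoxC. Sites that crossed a cluster limit were counted in full. The rates inside sites of HoxA and HoxD rest on 8 and 10 occurrences.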
